A study of Mus musculus with 4 samples.

Results

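The histone genes of the replication clusters, named Hist1 to Hist4 after the cluster that holds them, were followed in RNA from the cortex of APPswe/PS1ΔE9 transgenic mice (APP) and wild-type mice (WT), all aged 12 months. They were chosen by name alone, as the deposited rows whose gene symbol begins with Hist, a cluster number and the letter h. This gave 14 genes on 19 transcripts, out of 22919 features on 37539 transcripts, where a feature is the sum of the transcripts of 1 symbol or, for the 8274 transcripts with no symbol, a single transcript. The symbols of the table covered the clusters only in part. When the transcript identifiers were looked up in GENCODE M21 (GRCm38), 60 cluster histone genes on 63 transcripts held counts, out of 70 in that annotation, and 43 of the 60 had no transcript under any of the 14 symbols. All 5 histone classes were therefore described from the 60 genes, and the 14 symbols were described first.

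Histones package DNA. Pairs of H2A, H2B, H3 and H4 form the core of the nucleosome, and the linker histone H1 binds where the DNA enters and leaves it. The clustered genes are best known for making histone mRNA while DNA is being copied, and these mRNAs as a rule end in a short stem-loop held by the stem-loop binding protein (SLBP) instead of a poly(A) tail. They are largely lost when poly(A) RNA is selected and are kept when only ribosomal RNA is removed. The adult cortex consists mostly of cells that no longer divide, and in such cells some of the clustered genes are known to give polyadenylated mRNA as well.

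The cortex of 2 APP and 2 WT male mice, all of C57BL/6 background by the labels, was sequenced after depletion of ribosomal RNA, with 1 library per mouse. APP mice carry transgenes for a Swedish-mutant, humanized APP and a human presenilin 1 that lacks an exon, which in this line are driven by the mouse prion protein promoter, and WT mice carry neither. All APP mice come from 1 transgenic line, whether WT mice were littermates is not given in the sources used here, and a bulk sample mixes all cell types of the cortex. The libraries, called APP.3, APP.4, WT.1 and WT.2, held between 28525117 and 43881196 counts, and both WT libraries were deeper than both APP libraries. The 14 symbols took between 4490 and 5770 counts of a library, and the 60 genes between 14565 and 18911. The cortical neuron markers Slc17a7 and Camk2a, at between 313 and 751 CPM (counts per 1000000, on library sizes scaled by TMM), were present in all 4 libraries.

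The stem-loop that marks these mRNAs is shown first, because it is what the clustered genes share beyond their names. It was searched for on the sense strand after the stop codon of each transcript model, as GGNNCT, a loop of any 4 bases and AGNNCC, with the 6 bases of both arms complementary. The search found it in 42 of 60 cluster histone transcripts that have a stop codon (70.0%), in 11 of 17 under the 14 symbols (64.7%), and in 47 of 22370 other transcripts (0.21%). Of the cluster histone transcripts whose model runs at least 16 bases past the stop codon, 42 of 47 held it (89.4%). Below, each site is written as DNA, 5′ to 3′, from GENCODE M21 transcripts, with the arms of the stem in capitals and 5 bases on either side, and each lies in the 3′ UTR of its gene. The first line is a linker histone, the next pair are H2A and H2B genes with other loops, the fourth is an H2A gene of the Hist3 cluster, and the last pair are H4 genes.
Hist1h1c: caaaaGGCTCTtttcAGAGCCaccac
Hist2h2ac: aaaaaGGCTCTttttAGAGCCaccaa
Hist1h2bb: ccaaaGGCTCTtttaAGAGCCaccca
Hist3h2a: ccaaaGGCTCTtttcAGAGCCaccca
Hist1h4d: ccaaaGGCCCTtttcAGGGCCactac
Hist1h4j: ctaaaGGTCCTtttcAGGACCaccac
In GRCm38 these sites lie at chr13:23739507-23739532 on the plus strand for Hist1h1c, chr3:96220413-96220438 on the minus strand for Hist2h2ac, chr13:23747198-23747223 on the plus strand for Hist1h2bb, chr11:58955167-58955192 on the plus strand for Hist3h2a, chr13:23581945-23581970 on the plus strand for Hist1h4d and chr13:21735432-21735457 on the plus strand for Hist1h4j. The stem-loop of Hist1h1c and Hist3h2a was the most frequent, found in 22 genes of classes H1, H2A, H2B and H3. The form of Hist1h4d was found in 7 genes, all of class H4, and the form of Hist1h2bb in 5 genes of classes H2B and H3. The models of Hist1h1a, Hist1h1b, Hist1h2af, Hist1h2ak, Hist1h2bh and Hist1h2bc held no match. Those of Hist1h1b, Hist1h2ak and Hist1h2bh end at the stop codon, whereas that of Hist1h2bc is spliced and runs 742 bases past it.

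The question put to the clustered genes was whether their mRNA differed between the cortex of APP and WT mice. Summed over the 14 symbols it was somewhat more abundant in APP, while no single gene passed the test. The sum came to 155 CPM in APP.3 and 152 in APP.4, against 131 in WT.1 and 139 in WT.2. Both APP libraries lay above both WT libraries. The APP mean of 154 ± 2.19 CPM and the WT mean of 135 ± 5.74 (SD over 2 libraries each) gave a log2 ratio of 0.18, or 13.7% more in APP. Without Hist1h2bc, Hist1h1c and Hist1h1e, the 3 genes of highest count, the log2 ratio was 0.12. When APP.3 was left out, the log2 ratio of the sums was 0.17 and the median log2 fold change of the 14 genes 0.12.

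Among the 14 symbols, 0 passed both cut-offs between APP and WT, an adjusted p under 0.05 and a 1.5-fold change or more (edgeR's quasi-likelihood test, Benjamini-Hochberg adjustment over all 22919 features), against 0.982% of all features. DESeq2 also called 0. At an unadjusted p under 0.05, 1 gene was higher in APP, Hist1h1c, against 6.86% of all features. For a single gene, 2 against 2 libraries allow an exact two-sided permutation p of 0.333 at the lowest, and the edgeR p-values draw on a spread estimated across the table. On the log2 scale, 13 of the 14 fold changes lay above 0, with a median of 0.23 beside 0.00 over all features. In 6 genes both APP libraries were higher than both WT libraries, against 21.1% of all features, in 0 genes both were lower, against 20.0%, and in 8 the groups overlapped. The 95% interval of the fold change lay inside 1.5-fold in either direction in 6 genes, and for the other 8 it reached beyond that size.

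**Figure D1:**
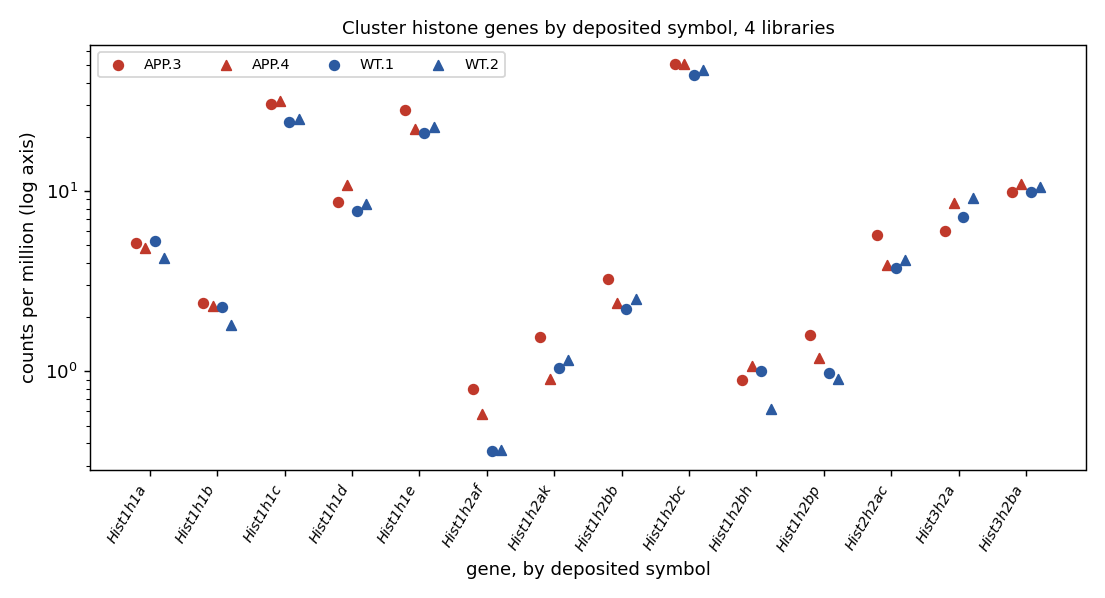
CPM of the 14 histone genes by deposited symbol, on a log axis, with 1 point per library, circles and triangles for the 2 libraries of each genotype, APP in red and WT in blue. Hist1h1c shows APP at 30.4 and 31.6 above WT at 24.2 and 25.2, while the points of Hist3h2a and Hist3h2ba interleave.

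The linker histones H1 were all 5 present under their own symbols. Hist1h1c encodes H1.2, one of the main linker histones of differentiated cells. It had 30.4 CPM in APP.3 and 31.6 in APP.4, against 24.2 in WT.1 and 25.2 in WT.2. Its APP libraries lay above its WT libraries and within each genotype the pair differed little. The log2 fold change was 0.33 ± 0.08 (SE; 95% interval 0.15 to 0.50), which did not pass the test (adjusted p = 0.102, edgeR's quasi-likelihood test). By edgeR's likelihood ratio test the adjusted p was 0.0346 and by its exact test 0.0378, with the fold change still under 1.5.

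Hist1h1e, encoding H1.4, had 28.3 CPM in APP.3 and 22.1 in APP.4, against 20.9 in WT.1 and 22.8 in WT.2. The groups overlapped, and APP.3 alone stood above the other libraries. The log2 fold change was 0.21 ± 0.12 (adjusted p = 0.582, edgeR's quasi-likelihood test). Without APP.4 it was 0.38 (adjusted p = 0.00605), and without APP.3 it was 0.01 (adjusted p = 0.978), so 1 mouse decided the value.

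Hist1h1d, encoding H1.3, had 8.67 and 10.8 CPM in APP.3 and APP.4 and 7.73 and 8.48 in WT.1 and WT.2, without overlap, and a log2 fold change of 0.27 ± 0.15 (adjusted p = 0.555), which was 0.10 without APP.4 and 0.41 without APP.3. Hist1h1b, encoding H1.5, had 2.29 CPM in APP.4 and 2.27 in WT.1, so its groups were separated by a small margin, and its log2 fold change was 0.19 ± 0.22, with 0.04 without WT.2 and 0.37 without WT.1. Hist1h1a, encoding H1.1, lay between 4.26 and 5.29 CPM with both extremes in WT. The 5 genes together gave 75.0 CPM in APP.3 and 71.7 in APP.4, against 60.4 in WT.1 and 62.6 in WT.2. The log2 ratio of these sums was 0.25, or 19.2% more in APP.

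Class H2A was represented by 4 of the 14 symbols and by 15 of the 60 genes. Hist3h2a, of the Hist3 cluster on chromosome 11, had 6.01 CPM in APP.3 and 8.65 in APP.4, against 7.23 in WT.1 and 9.13 in WT.2. It was the only symbol with a log2 fold change below 0, at -0.15 ± 0.19, and its 2 APP libraries differed more from each other than the genotypes did. Hist2h2ac had 5.74 CPM in APP.3 and 3.91 in APP.4, on either side of 4.14 in WT.2. Its log2 fold change of 0.29 ± 0.20 became -0.02 without APP.3. Hist1h2ak, at 1.56, 0.904, 1.05 and 1.16 CPM in APP.3, APP.4, WT.1 and WT.2, had the value of 1 APP library above and the other below WT.

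Hist1h2af had the largest log2 fold change of the 14, 0.90 ± 0.42, on the fewest counts. Its counts were 23, 18, 16 and 13 in APP.3, APP.4, WT.1 and WT.2, with an adjusted p of 0.471 by edgeR's quasi-likelihood test. In its transcript every window of 100 bases matched another cluster histone gene with 7 or fewer mismatches, the number the authors' alignment allowed. Without a mismatch, 65.3% of the windows matched. How reads were divided among such copies is not given in the sources used here, so the values of single genes of this kind are uncertain.

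The same holds for many of the H2A genes found by identifier. Hist2h2aa1 and Hist2h2aa2 are near copies on chromosome 3, with 88.1% and 100% of their windows shared. Hist2h2aa2 had 27.4 CPM in APP.3 and 22.9 in APP.4, against 20.1 in WT.1 and 19.7 in WT.2, and a log2 fold change of 0.33 ± 0.10. Hist1h2ai, at 0.33 ± 0.13, Hist2h2aa1, at 0.52 ± 0.22, and Hist1h2ab, at 0.78 ± 0.33, were likewise higher in both APP libraries. All 4 had an unadjusted p under 0.05, and the lowest adjusted p among them was 0.211 (edgeR's quasi-likelihood test over 18387 genes). Over the class, 8 of 15 genes were higher and 0 lower in both APP libraries, against 21.8% and 20.7% of all genes, and the sum was 63.0 and 58.4 CPM in APP against 50.8 and 50.9 in WT, 19.4% more in APP.

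Class H2B held the symbol of highest count, Hist1h2bc, whose 5 transcripts belong in GENCODE M21 to Hist1h2bc, Hist1h2be, Hist1h2bg and Gm42743. Gm42743 is annotated as a long noncoding RNA on chromosome 3 and is not among the 60 genes. Its 10.2, 9.62, 8.45 and 10.7 CPM in APP.3, APP.4, WT.1 and WT.2 are part of this symbol and of the 14-symbol sum. As deposited the symbol Hist1h2bc had 50.5 CPM in APP.3 and 50.8 in APP.4, against 44.2 in WT.1 and 47.2 in WT.2. The APP libraries were close to each other and above both WT libraries. The log2 fold change was 0.15 ± 0.07 (95% interval -0.01 to 0.31, adjusted p = 0.486). Taken transcript by transcript, the log2 fold change was 0.12 ± 0.09 for Hist1h2bc, 0.35 ± 0.17 for Hist1h2bg and 0.05 ± 0.14 for Gm42743. The 2 transcripts of Hist1h2be under this symbol had 0.25 ± 0.13 and -0.18 ± 0.43.

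Hist3h2ba, the H2B gene of the Hist3 cluster, had 9.85 CPM in APP.3 and 10.9 in APP.4, against 9.91 in WT.1 and 10.6 in WT.2. Its log2 fold change of 0.02 ± 0.12 had a 95% interval of -0.25 to 0.30, inside 1.5-fold. This symbol also took up the pseudogene Hist3h2bb-ps, which added 18, 43, 27 and 46 counts in APP.3, APP.4, WT.1 and WT.2. Hist1h2bb had 3.25 CPM in APP.3, with the other libraries between 2.23 and 2.51.

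Hist1h2bp had 1.59, 1.19, 0.977 and 0.902 CPM in APP.3, APP.4, WT.1 and WT.2, the second largest log2 fold change of the 14 at 0.56 ± 0.29 (adjusted p = 0.527). Hist1h2bh, a transcript that GENCODE M21 names Hist1h2bq, lay between 0.620 and 1.07 CPM with overlapping groups. Beyond the symbols, Hist2h2be had 4.87 and 4.20 CPM in APP against 2.68 and 3.50 in WT, and a log2 fold change of 0.56 ± 0.19 (adjusted p = 0.277, edgeR's quasi-likelihood test). Only 2.9% of its windows were shared with another cluster histone gene. Over the class, 9 of 17 genes were higher and 1, Hist1h2bj, lower in both APP libraries, against 21.8% and 20.7% of all genes, and the sums were 81.6 and 82.2 CPM in APP against 70.5 and 73.5 in WT, 13.8% more in APP.

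**Figure D2:**
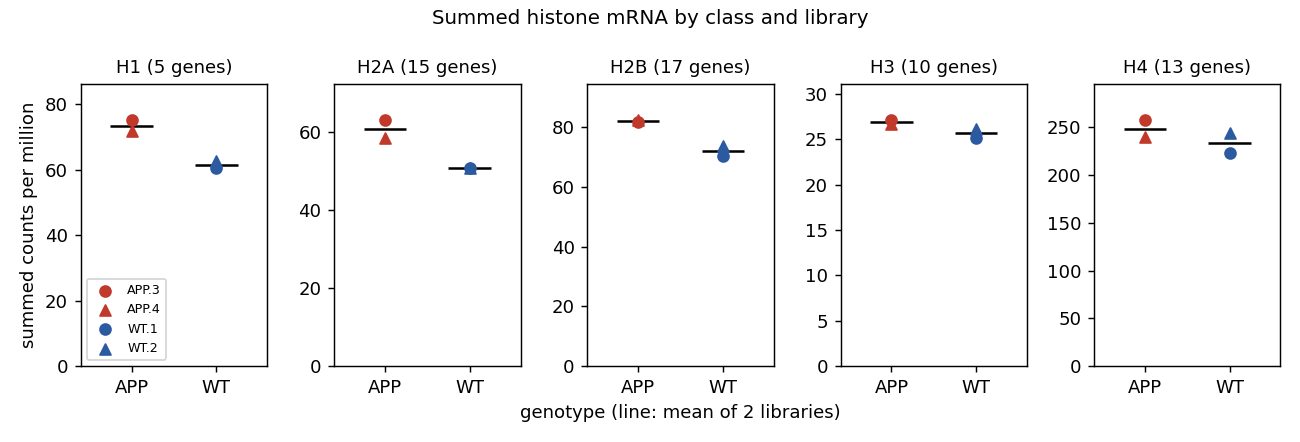
Summed CPM of the cluster histone genes of each class by genotype, with 1 point per library (circles APP.3 and WT.1, triangles APP.4 and WT.2), a line at the mean of 2 libraries and axes that start at 0. The APP points lie above the WT points in H1, H2A, H2B and H3, and in H4 the APP.4 point at 239 lies between the WT points at 223 and 244.

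None of the 14 symbols is an H3 or H4 gene, and both classes were seen only through transcript identifiers, under deposited symbols such as HIST1H3B and Gm11275 or with none. The 10 H3 genes summed to 27.1 CPM in APP.3 and 26.7 in APP.4, against 25.2 in WT.1 and 26.1 in WT.2. These sums did not overlap but differed by 4.78%. Hist1h3f, the H3 gene of highest count, had 9.92, 9.33, 9.93 and 10.4 CPM in APP.3, APP.4, WT.1 and WT.2, and a log2 fold change of -0.08 ± 0.12. In the class 3 genes were higher in both APP libraries, Hist1h3b, Hist1h3d and Hist1h3g, and 2 were lower, Hist1h3f and Hist2h3c2, shares near the 21.8% and 20.7% of all genes.

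The 13 H4 genes carried most of the cluster histone CPM of each library, up to 53.4% in WT.2. They summed to 257 CPM in APP.3 and 239 in APP.4, against 223 in WT.1 and 244 in WT.2, which overlapped. Hist1h4d, with the most counts of the 60 genes, had 51.6 and 48.4 CPM in APP against 50.2 and 48.9 in WT. Its log2 fold change was 0.01 ± 0.07, with a 95% interval of -0.15 to 0.17. Hist1h4j, at 0.00 ± 0.09, also had an interval inside 1.5-fold, as had 9 of the 13. Hist4h4, the single gene of its cluster on chromosome 6, had 18.1 CPM in APP.3 and between 23.0 and 24.8 in the other libraries. Per kilobase of transcript model, Hist1h4n was the most abundant of the 60 genes, at a mean of 66.4 CPM per kb. Next came Hist1h4h at 48.1, Hist1h4j at 47.3 and Hist1h4d at 43.8. This ranking depends on model length and on how reads were divided among copies. Of the windows of Hist1h4n, 91.5% were shared with another cluster histone gene. Among the 14 symbols, taken at their own GENCODE transcript, the level per length was 21.5 CPM per kb for Hist1h2bc, 17.9 for Hist1h1c and 15.2 for Hist3h2ba.

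One H4 gene stood apart within a genotype. The counts of Hist1h4m were 2, 65, 59 and 61 in APP.3, APP.4, WT.1 and WT.2. All of its windows were shared with another cluster histone gene, as were 91.5% of those of the neighbouring H4 gene Hist1h4n, which had 993, 828, 1103 and 999 counts in the same order. The 2 genes together gave 34.4, 28.8, 26.4 and 29.9 CPM. The RNase P RNA-like genes Rprl1, Rprl2 and Rprl3 had 107 counts together in APP.3, against between 22867 and 26653 in the other libraries. What the 2 gaps in APP.3 have in common was not tested.

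With all 4 libraries, 0 of the 60 genes passed the cut-offs (edgeR's quasi-likelihood test over 18387 genes), against 0.886% of all genes. DESeq2 also called 0. By edgeR's likelihood ratio test 0 were called as well, and the lowest adjusted p was 0.02575, of Hist1h1c. Calls changed when APP.4 was left out, a fit that leaves a single APP library and is not counted here. At an unadjusted p under 0.05 by the quasi-likelihood test, 6 genes were higher in APP, against 7.51% of all genes, and 0 were lower. They were Hist1h1c, Hist2h2be and the 4 H2A genes named above. Both APP libraries were above both WT libraries in 27 genes, against 21.8% of all genes, and below them in 3, against 20.7%. The groups overlapped in 30. The log2 fold change was above 0 in 50 of the 60, with a median of 0.20 beside 0.00 over all genes. Without APP.3 the median was 0.15, and 41 of the 60 lay above 0. The summed level was 503 CPM in APP.3 and 478 in APP.4, against 430 in WT.1 and 457 in WT.2, with means of 491 ± 18.0 for APP and 443 ± 19.3 for WT (SD over 2 libraries each), 10.7% more in APP. In bulk tissue, more cells of a type and more RNA per cell cannot be told apart. When APP.4 was left out, the median log2 fold change was 0.21, and 47 of the 60 lay above 0. Single genes could differ widely within APP. Hist1h2bl had 63 counts in APP.3 and 22, 34 and 33 in APP.4, WT.1 and WT.2, so its APP libraries lay on either side of WT.

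**Figure D3:**
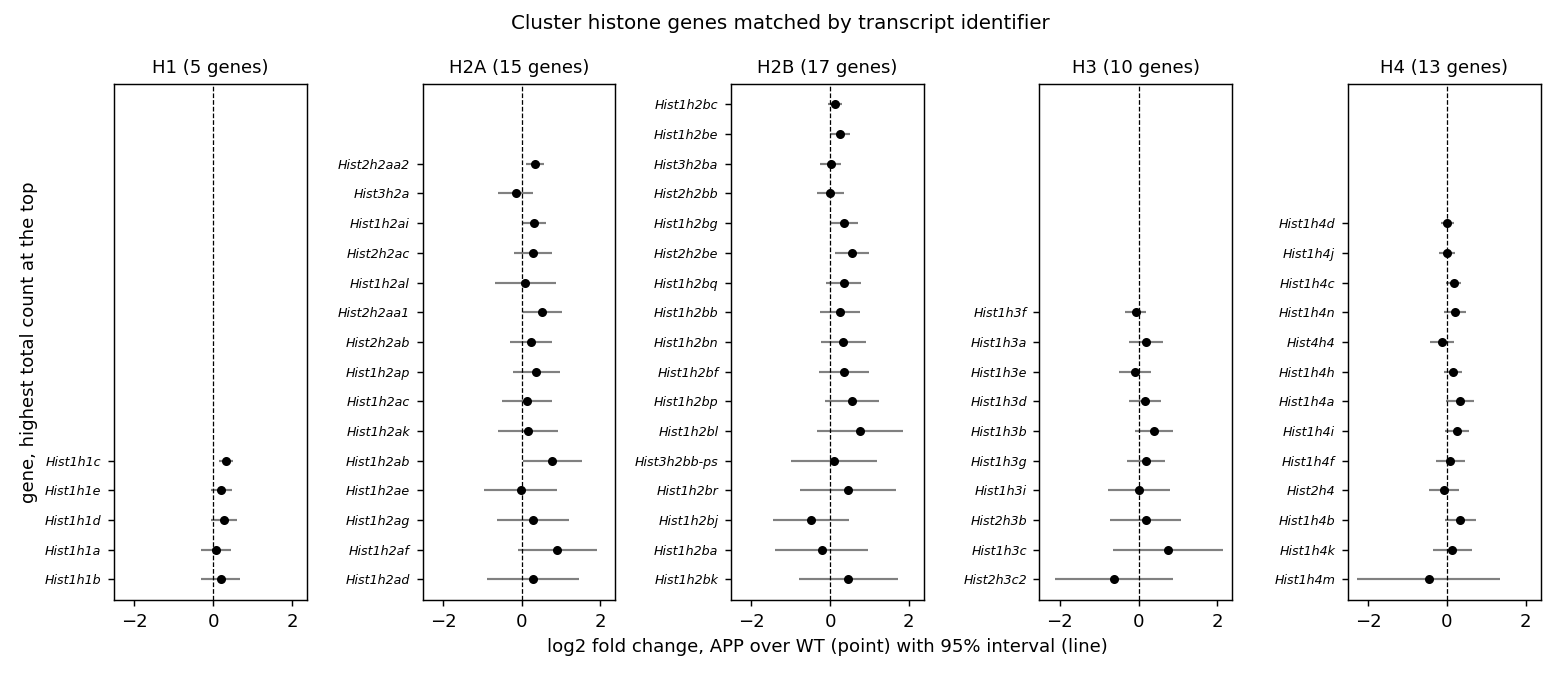
Log2 fold change of APP over WT (points) with its 95% interval (lines) for the 60 cluster histone genes matched by transcript identifier, by class, with the highest total count at the top and a dashed line at 0. Points lie mostly to the right of 0, intervals widen toward the genes of low count, and 50 of 60 points are above 0.

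By cluster, the 47 genes of Hist1 on chromosome 13 had a median log2 fold change of 0.21 and the 9 of Hist2 on chromosome 3 one of 0.24. The 47 were grouped by name and include Hist1h2al, annotated as a processed pseudogene, which starts at chr13:51202727, away from the others. The 3 genes of Hist3 on chromosome 11 had a median of 0.01, and the gene of Hist4 one of -0.13. The sums of Hist3 and of Hist4 overlapped between the genotypes, those of Hist1 and Hist2 did not, and the difference between clusters was not tested. The genes also differed by what their transcript model holds, with groups set after the data had been seen. In 21 genes the model ends within 100 bases of the stem-loop, and their median log2 fold change was 0.29. In 20 genes it runs further, so that reads of longer, possibly polyadenylated forms are counted too, and the median was 0.08. In 19 genes without a stem-loop in the model it was 0.18. The groups differ in histone class and in the sequence they share with other genes, and the differences between them were not tested. The list of clustered genes known for polyadenylated mRNA in differentiated tissue, Hist1h1c, Hist1h2bc, Hist1h2be, Hist2h2be, Hist3h2a and Hist4h4, had 0 of 6 called and a median log2 fold change of 0.18. Of 4 clustered genes known from the testis only Hist1h2ba had counts, between 0.311 and 0.423 CPM in a library, with a log2 fold change of -0.21 ± 0.52.

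Companion genes of histone mRNA had medians near 0. Of 20 counted genes for the processing and turnover of the histone mRNA 3′ end, 0 were called, and the median log2 fold change was -0.01. Slbp, which encodes the protein that holds the stem-loop, had 28.1 CPM in APP.3 and 25.8 in APP.4, against 26.8 in WT.1 and 27.8 in WT.2, and a log2 fold change of -0.02 ± 0.08. Cstf2, a subunit of a cleavage factor, at 0.02 ± 0.06, and Fip1l1, a subunit of the polyadenylation complex, at 0.02 ± 0.07, were the most abundant of the list. Of 12 counted histone genes outside the clusters, most of which give polyadenylated mRNA at all times of the cell cycle, 0 were called, and the median was -0.05. Those of highest count, H3f3a and H3f3b, both encode the replacement histone H3.3 and had log2 fold changes of 0.00 ± 0.07 and 0.03 ± 0.09. Of 20 histone chaperones, 0 were called, and the median was -0.02. Among them Atrx, which deposits H3.3, had -0.09 ± 0.07 and Ubn2, of the HIRA complex, -0.02 ± 0.08.

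Among 33 counted genes of DNA replication and the cell cycle, 1 was called, higher in APP, and the median log2 fold change was 0.14. This was Top2a, a topoisomerase made in dividing cells, at 2.42 CPM in APP.3 and 3.10 in APP.4, against 1.02 in WT.1 and 0.846 in WT.2, 1.55 ± 0.26 higher on the log2 scale (adjusted p = 0.0302, edgeR's quasi-likelihood test). Mki67, which encodes a protein of dividing cells, had 1.97 and 2.55 CPM in APP against 1.16 and 0.874 in WT, and a log2 fold change of 1.14 ± 0.28 (adjusted p = 0.121). Pcna, the sliding clamp of DNA synthesis, at 0.11 ± 0.10, and Tyms, which makes thymidylate, at -0.01 ± 0.06, had the highest counts of the list and did not pass. The list summed to 329 and 315 CPM in APP.3 and APP.4 and 310 and 305 in WT.1 and WT.2, without overlap, 4.8% more in APP. Tyms alone gave between 155 and 158 CPM of each sum. Of the 33 log2 fold changes, 24 lay above 0. In 13 genes both APP libraries were higher and in 4 lower than both WT libraries, against 21.8% and 20.7% of all genes. Its part in the histone levels was not tested.

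Markers of other cells moved with the genotype as well. All 13 microglial markers had log2 fold changes above 0, with a median of 0.96. Their summed level was 318 and 390 CPM in APP against 185 and 186 in WT. Of the 13 markers, 8 were called, all higher in APP. These were Trem2, a microglial lipid receptor, at 1.82 ± 0.11, Tyrobp, its signalling adaptor, at 2.09 ± 0.11, C1qa and C1qc, of the first complement component, at 1.09 ± 0.11 and 0.96 ± 0.15, the receptors Cx3cr1 and Csf1r at 0.73 ± 0.08 and 0.70 ± 0.10, and Cst7 and Clec7a, known from activated microglia. Cst7 had 11.3 and 12.4 CPM in APP and under 0.1 in both WT libraries, and Clec7a 10.5 and 11.1 CPM in APP and 0.114 and 0.113 in WT. The defining microglial marker P2ry12 had 0.52 ± 0.10 and did not pass (adjusted p = 0.0535). All 6 astrocyte markers had log2 fold changes above 0, and 2 were called, Gfap at 2.82 ± 0.09 and Aqp4 at 0.73 ± 0.07. Slc1a3 and Aldoc, abundant astrocyte transcripts, had 0.23 ± 0.07 and 0.13 ± 0.06, and the summed level was 1642 and 1798 CPM in APP against 1209 and 1187 in WT. Of 5 oligodendrocyte markers, Mbp, Mog, Mag, Mobp and Cnp, 1 was called, Mag at 0.70 ± 0.10, and the median log2 fold change was 0.44. Cnp, at 0.54 ± 0.10, and Mobp, at 0.44 ± 0.08, had an adjusted p under 0.05 but less than a 1.5-fold change, and the abundant Mbp, of the myelin sheath, had 0.29 ± 0.08. All 5 were higher in both APP libraries, and their sum was 1065 and 936 CPM in APP.3 and APP.4 and 738 and 799 in WT.1 and WT.2, 30.1% more in APP. Within APP this sum was higher in APP.3, and the microglial and astrocyte sums were higher in APP.4. Of 5 markers of oligodendrocyte precursors, which divide in the adult brain, 0 were called, with 0.24 ± 0.06 for Pdgfra and 0.14 ± 0.10 for Gpr17, and the sum was 101 and 102 CPM in APP against 86.4 and 86.7 in WT. Of 5 endothelial and 7 cortical neuron markers 0 were called, and the medians were -0.10 and -0.16. All had log2 fold changes below 0. The neuron sums were 1246 and 1240 CPM in APP.3 and APP.4 against 1411 and 1349 in WT.1 and WT.2, without overlap. The endothelial sums overlapped. Pecam1 and Flt1 had -0.10 ± 0.14 and -0.01 ± 0.16, and Slc17a7 and Camk2a had -0.28 ± 0.06 and -0.09 ± 0.07. The part of these cells in the histone levels was not tested.

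Among 18 other RNAs without a poly(A) tail, or without one of the usual kind, 0 were called, and the median log2 fold change was 0.17. Rmrp, the RNA of RNase MRP, had 0.37 ± 0.06 with an adjusted p of 0.0302 (edgeR's quasi-likelihood test) and a fold change under 1.5. Those of highest count, Rn7s1, an RNA of the signal recognition particle, and Malat1, a nuclear long noncoding RNA, had 0.13 ± 0.07 and 0.05 ± 0.05. The list was set beside the 60 histone genes, whose median was 0.20, without a test between them. Its sum was 110200 CPM in APP.3 and 123700 in APP.4, against 105500 in WT.1 and 110400 in WT.2. These sums overlapped. They came mainly from Rn7s1 and Malat1, whose APP means were 71120 and 20150 CPM within a list mean of 116900. The list also holds Rprl1 to Rprl3, with 107 counts together in APP.3 against 22867 or more in every other library. Whether the recovery of RNA without a poly(A) tail differed between the libraries was not tested.

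**Figure D4:**
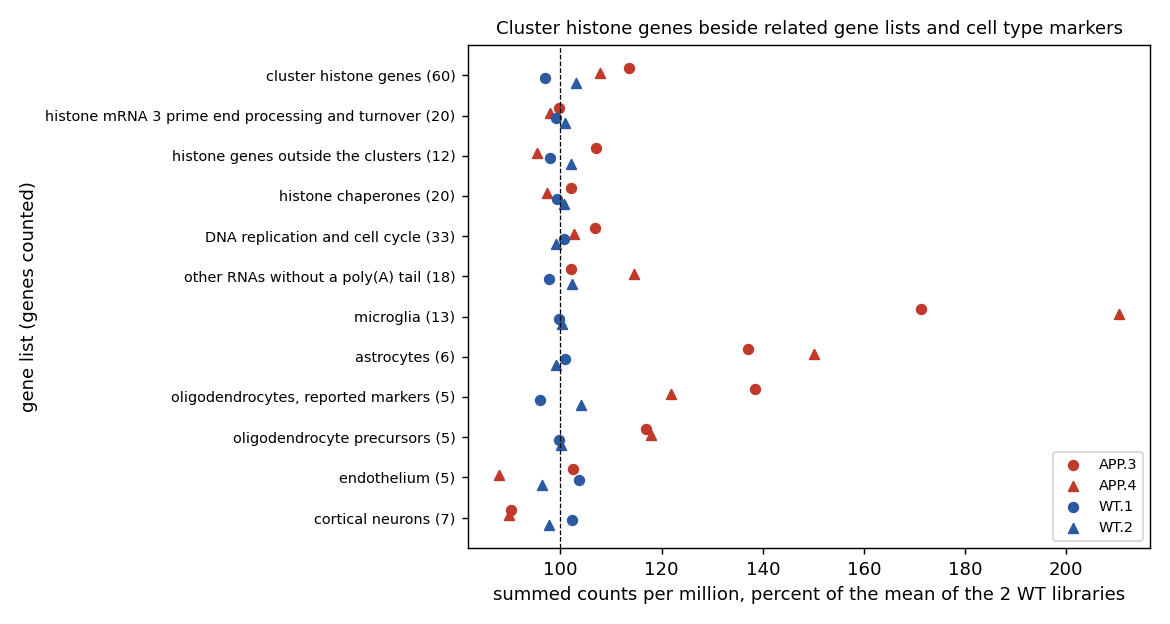
Summed CPM of the 60 cluster histone genes and 11 companion lists in each library, as a percent of the mean of the 2 WT libraries, with 1 point per library (APP red, WT blue) and the number of genes counted in brackets. The cluster histone genes lie at 114% and 108% in APP, the lists for 3′ end processing, other histone genes and chaperones spread around 100%, the oligodendrocyte markers lie at 139% and 122%, and the microglial markers reach 171% and 211%.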

How the data were processed

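Libraries were made strand-specific from RNA freed of ribosomal RNA and read from both ends. Ribosomal pairs were dropped by the authors, who placed the remaining reads on Ensembl mouse RNA with FANSe2 (7 mismatches at most) and deposited raw read counts for each transcript. CASAVA 1.8 and edgeR are named in the submitters' processing notes. The Ensembl release and the treatment of reads that fit several transcripts are not given in the sources used here. WT columns could be tied to single mice by their numbers, and APP columns to the genotype alone. Deposited columns of fold change, mean CPM, p-value and FDR, which are the authors' own comparison, were left aside, as were 4 other columns with a value for each library.

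Counts were summed per deposited symbol, and 0 features fell under the minimum of 10 counts over all 4 libraries. APP and WT were compared with edgeR 4.0.16 in R 4.3.3 (quasi-likelihood test, TMM factors between 0.987 and 1.01, no covariate). Benjamini-Hochberg adjustment ran over all features, and calls needed an adjusted p under 0.05 and a 1.5-fold change or more. edgeR's common dispersion came to 0.00781. Errors of CPM are SDs over 2 libraries and those of log2 fold changes are SEs. The script was tested on simulated counts. Alternatives were DESeq2 1.42.0, edgeR's likelihood ratio and exact tests, no TMM, at least 10 counts in every library, no limit on fold change, transcripts as deposited, and leaving out each library.

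Because 255 of 14579 deposited symbols covered more than 1 GENCODE gene, the counts were also summed per GENCODE M21 gene, with 98.2% of transcripts matched by identifier. This alternative was chosen after the data had been seen, and the 60 genes and the companion lists are read from it. Members and lists were chosen with earlier results of these data known. Named in the text are called members, the 12 members of highest count, the 3 largest and 3 smallest log2 fold changes among members of at least 100 counts, the genes of Hist3 and Hist4, Slbp, Mki67, Top2a, and of each list called genes and the 2 of highest count. A further gene of this rule is not reported here, and the oligodendrocyte markers are described without it. The other H2A, H2B, H3 and H4 genes, P2ry12, Rmrp and Rprl1 to Rprl3 were named after their values were seen. Sums and sequence searches used Python 3.11.15, pandas 2.3.3 and numpy 2.4.6.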

Additional observations from a re-analysis of the deposited data

How the results depend on the processing

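The number of the 14 symbols called was 0 in each alternative fit to all 4 libraries. These were DESeq2, the likelihood ratio and exact tests, library totals without TMM, and at least 10 counts in every library. The others were any fold change with the quasi-likelihood test, and transcripts as deposited. Summed by identifier, with all 4 libraries, 0 of the 60 genes were called. The number of all features called was 225, with 397 by the exact test, 443 by the likelihood ratio test and between 184 and 730 when a library was left out. The value of 730 came without APP.3 and 578 without APP.4, and the lone library of a genotype was then assumed to vary like the other group. The median log2 fold change of the 14 symbols, 0.23, ranged from 0.12 without APP.3 to 0.26 without APP.4. The log2 ratio of their summed CPM, 0.18, was 0.12 without the 3 members of highest count and between 0.14 and 0.23 when a library was left out. When a library was left out, the log2 fold changes of Hist1h1a, Hist1h2ak, Hist1h2bh, Hist2h2ac, Hist3h2a and Hist3h2ba changed sign, and those of the other 8 did not. The causes of these shifts were not tested.

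The sources used here give no pairing of APP with WT mice, so no paired analysis was run. The APP columns carry numbers that match no replicate number in the labels. Low counts limit the genes at the bottom of the range, such as Hist1h2af with 70 counts over 4 libraries. Single genes that share most of their sequence with another, such as Hist1h4m, are uncertain. The reads carry no molecular identifiers.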
